A study of Mus musculus with 18 samples.

Results

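The messenger RNAs of 9 chemokine receptors, Ccr1, Ccr2, Ccr7, Ccr9, Cxcr3, Cxcr4, Cxcr6, Cx3cr1 and Xcr1, were followed across sorted natural killer (NK) cells, type 1 innate lymphoid cells (ILC1) and metastasis-associated macrophages (MAMs) of mice with colorectal liver metastases. The 9 genes were taken by symbol, and all 9 were found among the 54309 genes of the lymphocyte count file and the 13759 genes of the MAM count file. Each was analysed on its own.

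Chemokine receptors are heptahelical receptors that signal through inhibitory G proteins and steer leukocytes along gradients of secreted chemokines. In the liver, circulating NK cells and resident ILC1 differ in the receptors with which they patrol sinusoids, enter inflamed tissue or stay in place. Monocytes enter through a CC receptor and take up other receptors as they become macrophages or dendritic cells.

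Metastases were induced in female C57BL/6J mice 8 to 10 weeks old by intrasplenic injection of MC38, a mouse colon adenocarcinoma cell line, and livers were taken 20 days later. All mice were tumor bearing, so the metastasis-free tissue also came from such livers, and the labels name no engineered allele. From metastasis-free liver (MFL), NK cells were sorted as lin- CD45+ NKp46+ CD49a- CD49b+ and ILC1 as lin- CD45+ NKp46+ CD49a+ CD49b-. From liver metastasis (LM), CD49a- NK cells carried CD49b and lacked CD49a, and CD49a+ NK cells carried both integrins. Titles of the latter call these cells ILC1, but they were assigned by their cell type label. MAMs from LM were sorted as lin- CD45+ CD11b+ with high or low F4/80 (F4/80high and F4/80low; the study's text calls the second subset F4/80int). Each of the 6 populations had 3 libraries. Each lymphocyte library held cells pooled from 6 to 8 MFL or LM samples, and the study names 3 independent sortings, so populations may share a sort. Nothing states whether the 3 MAM libraries of a subset came from separate mice, so p-values measure the spread between libraries. LM was digested with enzyme and MFL was smashed without it, so site and dissociation cannot be told apart. In such bulk libraries fewer cells of a type and less RNA per cell cannot be told apart either.

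Lymphocyte libraries held 8795721 to 14386834 counts and MAM libraries 21278959 to 32267015. Levels are CPM, counts relative to the size of the library, scaled by TMM factors, which correct for library composition. Of the sorting markers, Itga1, which encodes CD49a, averaged 663 CPM in MFL ILC1, 134 CPM in LM CD49a+ and 11.4 CPM in LM CD49a- NK cells, and 11.5 CPM in those of MFL. Ncr1, which encodes NKp46, was present in all 12 lymphocyte libraries at 495 to 1076 CPM. Adgre1, which encodes F4/80, had 958 CPM in F4/80high and 146 CPM in F4/80low MAMs. The Kupffer cell list of 5 markers was at 0 in all LM lymphocyte libraries. It summed to at most 5.53 CPM in any MFL library and 15.8 CPM in any MAM library. A list of 10 macrophage markers summed to 24.8 to 144 CPM in MFL ILC1 and 13.7 to 50.0 CPM in MFL NK cells. In LM these sums were 0 to 29.1 CPM in CD49a- and 0.678 to 50.9 CPM in CD49a+ NK cells. The part of such RNA in the lymphocyte receptor levels was not tested. Lymphocytes were read with a total RNA kit and MAMs with a poly(A) kit, so no test was made between them.

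Of the 9 receptors, 6 lie on chromosome 9 of GRCm39, and 5 of them form a cluster of 406 kb. In order along the chromosome these are Ccr9 (ENSMUSG00000029530, chr9:123507181-123613395), Cxcr6 (ENSMUSG00000048521, chr9:123635534-123640825), Xcr1 (ENSMUSG00000060509, chr9:123681380-123691094), Ccr1 (ENSMUSG00000025804, chr9:123762161-123768734) and Ccr2 (ENSMUSG00000049103, chr9:123901982-123913594). Cx3cr1 (ENSMUSG00000052336, chr9:119877749-119898945) lies apart on the same chromosome. Ccr7 (ENSMUSG00000037944, chr11:99035022-99045911), Cxcr3 (ENSMUSG00000050232, chrX:100775141-100777875) and Cxcr4 (ENSMUSG00000045382, chr1:128515936-128520044) are on other chromosomes. Cxcr6 sits inside Fyco1 on the opposite strand, and Ccr9 overlaps genes on both strands. Both library kits kept strand, but whether the counting used it is not given in the sources used here, so the low Ccr9 values are uncertain.

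Promoters are printed for the 4 receptors called in MFL ILC1 against MFL NK cells, a pair that was higher in ILC1 (Cxcr3 and Cxcr6) and a pair that was lower (Cxcr4 and Cx3cr1). The sequences are those of RefSeq, which held 8 of the 9 receptors and not Ccr7, and run from 250 bases before to 50 bases after the start of the gene. Capitals mark matches, on either strand, to the motifs listed after them.
Cxcr3 promoter (chrX:101734098-101734397, - strand, GRCm38.p6): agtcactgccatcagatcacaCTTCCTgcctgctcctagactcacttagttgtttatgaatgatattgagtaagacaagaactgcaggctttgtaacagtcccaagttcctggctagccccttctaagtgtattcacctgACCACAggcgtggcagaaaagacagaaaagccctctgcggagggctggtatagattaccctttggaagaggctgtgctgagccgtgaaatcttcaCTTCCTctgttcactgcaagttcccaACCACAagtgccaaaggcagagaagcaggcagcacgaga
Cxcr6 promoter (chr9:123806227-123806526, + strand, GRCm38.p6): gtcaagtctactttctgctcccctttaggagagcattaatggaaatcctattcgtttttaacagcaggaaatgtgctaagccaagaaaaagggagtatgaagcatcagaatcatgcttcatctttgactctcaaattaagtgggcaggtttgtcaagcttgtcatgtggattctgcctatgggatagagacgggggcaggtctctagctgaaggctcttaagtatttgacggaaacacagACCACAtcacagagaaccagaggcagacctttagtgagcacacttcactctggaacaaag
Cxcr4 promoter (chr1:128592250-128592549, - strand, GRCm38.p6): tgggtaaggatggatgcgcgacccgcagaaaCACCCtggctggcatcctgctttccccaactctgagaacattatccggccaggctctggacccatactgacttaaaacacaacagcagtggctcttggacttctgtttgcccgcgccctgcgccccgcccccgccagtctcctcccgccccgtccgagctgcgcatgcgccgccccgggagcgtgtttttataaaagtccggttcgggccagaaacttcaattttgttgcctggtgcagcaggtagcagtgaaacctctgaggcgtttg
Cx3cr1 promoter (chr9:120068247-120068546, - strand, GRCm38.p6): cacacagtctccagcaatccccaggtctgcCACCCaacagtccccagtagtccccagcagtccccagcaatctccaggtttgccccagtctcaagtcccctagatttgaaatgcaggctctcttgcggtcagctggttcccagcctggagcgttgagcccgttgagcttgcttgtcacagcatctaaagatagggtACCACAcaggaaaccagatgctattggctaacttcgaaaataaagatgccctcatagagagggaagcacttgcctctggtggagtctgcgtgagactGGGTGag
Letters typical of 7 families of transcription factors were searched on both strands, and the share of all 32851 RefSeq promoters of 300 bases that hold them is given for each. RUNX factors, which act in many lymphocytes, were searched as TGTGGT, found in 16.8% of promoters. The ETS family was searched as AGGAAG, found in 35.4% of promoters. KLF factors were searched as CACCC, found in 57.5% of promoters. T-box factors, the family of T-bet and Eomes, were searched as AGGTGTGA, found in 1.28% of promoters. STAT factors were searched as TTCNNNGAA, found in 8.30% of promoters. Hypoxia-inducible factors (HIF) were searched as ACGTG, found in 19.6% of promoters. GATA factors were searched as AGATAA, found in 11.2% of promoters. RUNX letters stood in Cxcr6 at bases 241 to 246, in Cxcr3 at bases 141 to 146 and 262 to 267, in Cx3cr1 at bases 197 to 202 and in Ccr1 at bases 193 to 198, all on the minus strand of the printed run. They were found both in the pair that was higher in ILC1 and in a receptor that was lower. Cxcr3 also held ETS letters at bases 22 to 27 and 236 to 241, Cxcr4 held KLF letters at bases 32 to 36, and Cx3cr1 held KLF letters at bases 31 to 35 and 294 to 298. T-box and STAT letters were in none of the 8 windows. Overlapping matches occurred only in Xcr1, where HIF letters were read on both strands of 1 stretch.

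Cxcr3, the receptor for the interferon-induced chemokines CXCL9, CXCL10 and CXCL11, was highest in MFL ILC1. In replicates 1, 2 and 3 it had 81.4, 135 and 152 CPM in MFL ILC1. The MFL NK libraries had 14.5, 21.5 and 13.9 CPM. Every ILC1 library was above every MFL NK library. The difference was 2.88 on the log2 scale (standard error 0.57, edgeR adjusted p = 0.00710), a 7.39-fold higher level.

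In LM, Cxcr3 had 29.3, 60.7 and 20.8 CPM in the CD49a+ libraries and 5.35, 22.8 and 6.14 CPM in the CD49a- libraries. The groups overlapped, because replicate 2 of the CD49a- cells exceeded replicate 3 of the CD49a+ cells. The log2 difference was 1.69 (standard error 0.55, unadjusted 95% interval 0.61 to 2.78) and missed the threshold over all genes (edgeR adjusted p = 0.334). Without replicate 2 of the LM CD49a- NK cells it was 2.68 and was called (edgeR adjusted p = 0.0521). DESeq2 and edgeR without a low-count filter also called it, so 3 of 14 alternatives did. The Cxcr3 level of LM CD49a+ NK cells lay below that of MFL ILC1 in every library, with a log2 difference of -1.73 (standard error 0.55) and no call (edgeR adjusted p = 0.136). This difference was called under 6 of 14 alternatives, which were DESeq2 (adjusted p = 0.0463), limma-voom with sample quality weights (adjusted p = 0.0122), edgeR without a low-count filter (adjusted p = 0.0161), edgeR with a replicate block (-1.88, adjusted p = 0.0380), edgeR on only the groups compared (adjusted p = 0.0791) and edgeR without replicate 2 of the LM CD49a+ NK cells (-2.29, adjusted p = 0.0680). Against MFL NK cells, LM CD49a+ NK cells differed by 1.15 (edgeR adjusted p = 0.510), with overlapping libraries, and LM CD49a- NK cells by -0.54 (edgeR adjusted p = 0.968).

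Cxcr6, the receptor for CXCL16 and a marker of liver-resident lymphocytes, was highest in MFL ILC1, where every library exceeded all libraries of the other lymphocyte populations. It had 126, 149.8 and 182 CPM in MFL ILC1. The MFL NK libraries had 0.0817, 0.442 and 0 CPM, which are 1, 6 and 0 counts. The log2 difference was 9.67 (standard error 1.31, 95% interval 7.10 to 12.24, edgeR adjusted p = 0.000382), and no library of one population came near the other.

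In LM CD49a+ NK cells Cxcr6 had 0, 5.55 and 4.09 CPM, from 0, 71 and 41 counts, and in LM CD49a- NK cells it had 0 counts in all 3 libraries. A count of 0 allows up to 3 counts per library, or 0.301 CPM on average, so the mean of LM CD49a+ NK cells was at least 10.7-fold higher. The groups met at 0 in replicate 1 of the CD49a+ cells, and the difference was not called (edgeR adjusted p = 0.151). Without that library it was called (edgeR adjusted p = 0.0110). DESeq2 and edgeR without a low-count filter also called it, so 3 of 13 alternatives did. LM CD49a+ NK cells were far below MFL ILC1, with a log2 difference of -5.56 (standard error 1.05, edgeR adjusted p = 0.00854). All 3 of their libraries were below all 3 ILC1 libraries. Against MFL NK cells the log2 difference was 4.11 without a call (edgeR adjusted p = 0.209). It was called without replicate 1 of the LM CD49a+ NK cells (log2 difference 4.68, edgeR adjusted p = 0.0153) and by edgeR without a low-count filter.

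T cells also use Cxcr3 and Cxcr6. The sorted cells were lin-, and the lineage markers that the study's cytometry names include CD3, a gate that would remove T cells. The RNA of 10 listed T cell markers was read beside both receptors. These summed to 381 to 805 CPM per library in MFL ILC1 and to 84.6 to 128 CPM in MFL NK libraries. Of 7 tested genes 1 was higher in ILC1 and none lower, beside 1.38% and 1.68% of all genes. Most of the ILC1 sum was Cd3g, with a mean of 472 CPM, while Cd3e had 0.122 CPM, Trac 5.50 CPM and Cd8a 4.87 CPM there. MFL NK cells had 6.21 CPM of Cd3g, 0.612 CPM of Cd3e and 2.08 CPM of Trac. None of the 10 genes was at 0 in all ILC1 libraries, and the part of T cell RNA in the Cxcr3 and Cxcr6 levels was not tested.

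Cxcr4, the receptor for CXCL12 that holds lymphocytes in bone marrow and other CXCL12-rich tissue, had the reverse pattern and was nearly absent from MFL ILC1. It had 0.764, 2.63 and 0.568 CPM in MFL ILC1. MFL NK cells had 140.0, 54.3 and 46.7 CPM. The 2 ranges were far apart, with a log2 difference of -5.87 (standard error 0.87, edgeR adjusted p = 0.000520).

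LM NK cells held the highest mean Cxcr4 levels and the widest spread. LM CD49a- NK cells had 169.8, 139.7 and 561 CPM, and LM CD49a+ NK cells had 161, 92.7 and 723 CPM. Replicate 3 was the high library in both LM populations. The 2 LM populations differed by 0.17 (standard error 0.67, 95% interval -1.14 to 1.47, edgeR adjusted p = 0.970), an interval that leaves room for more than a doubling either way. Against MFL NK cells the log2 difference was 1.85 for LM CD49a- NK cells (standard error 0.69, edgeR adjusted p = 0.714) and 2.02 for LM CD49a+ NK cells (standard error 0.69, edgeR adjusted p = 0.357), in each case with overlapping libraries. With both replicate 3 libraries of LM left out, an alternative chosen after the data were seen, these values were 0.93 and 0.65. Each of the 2 differences was called under 2 of 14 alternatives, limma-voom with sample quality weights and edgeR without a low-count filter.

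Between the CD49a+ populations of both sites Cxcr4 gave the widest gap among the called receptors. LM CD49a+ NK cells exceeded MFL ILC1 by 7.89 on the log2 scale (standard error 0.93, edgeR adjusted p = 9.69e-05), and by 6.54 without both replicate 3 libraries of LM (edgeR adjusted p = 0.000268). The test of the interaction compared the CD49a+ minus CD49a- difference in LM with that in MFL. For Cxcr4 these differences were 0.17 and -5.87, and the interaction of 6.04 was called (standard error 1.07, edgeR adjusted p = 0.0125). It remained called without both LM replicate 3 libraries (5.61, edgeR adjusted p = 0.0114) and was not called by limma-voom with sample quality weights (4.54, adjusted p = 0.250). The CD49a+ cells of LM also carry CD49b and those of MFL do not, so site, dissociation and CD49b cannot be told apart in this test.

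Cx3cr1, the receptor for CX3CL1 and a marker of mature circulating NK cells, was highest in MFL NK cells. These had 138, 80.3 and 73.3 CPM. MFL ILC1 had 7.30, 2.12 and 0 CPM. The log2 difference was -4.94 (standard error 1.20, edgeR adjusted p = 0.0335) with no overlap between libraries. The call was lost without replicate 2 of MFL ILC1 (edgeR adjusted p = 0.130) and without replicate 1 of MFL NK cells (edgeR adjusted p = 0.136), with log2 differences of -4.73 and -4.61.

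LM NK cells stood between these populations on average. LM CD49a- NK cells had 20.9, 18.7 and 43.5 CPM, and LM CD49a+ NK cells had 0.678, 25.7 and 28.0 CPM. All 6 LM libraries were below the 3 MFL NK libraries, with log2 differences of -1.81 for CD49a- (95% interval -3.85 to 0.23, edgeR adjusted p = 0.796) and -2.42 for CD49a+ NK cells (95% interval -4.51 to -0.34, edgeR adjusted p = 0.473). Neither difference was called. Between the LM populations the log2 difference was -0.61 (95% interval -2.61 to 1.38, edgeR adjusted p = 0.885). Replicate 1 of the LM CD49a+ NK cells stood apart as nearly empty of Cx3cr1, as it was of Cxcr6. Against MFL ILC1, LM CD49a+ NK cells differed by 2.52 (edgeR adjusted p = 0.300), and that library lay within the ILC1 range.

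Ccr2, the receptor for CCL2, CCL7 and CCL12 that brings inflammatory cells out of the blood, was present at high level in all 12 lymphocyte libraries. It had 423, 564 and 366 CPM in LM CD49a+ NK cells. MFL ILC1 had 225, 165 and 133 CPM. Every LM CD49a+ library was above every ILC1 library (log2 difference 1.37, standard error 0.33, edgeR adjusted p = 0.0358). The call was lost without replicate 2 of the LM CD49a+ NK cells (edgeR adjusted p = 0.113), replicate 2 of MFL ILC1 (edgeR adjusted p = 0.138) or replicate 3 of MFL ILC1 (edgeR adjusted p = 0.187).

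MFL NK cells had 255, 319 and 293 CPM of Ccr2, above all ILC1 libraries and below all LM CD49a+ libraries. Neither gap was called in the fit of all 12 libraries, with a log2 difference of -0.73 for ILC1 minus MFL NK cells (95% interval -1.38 to -0.08, edgeR adjusted p = 0.539) and of 0.64 for LM CD49a+ minus MFL NK cells (95% interval -0.0041 to 1.29, edgeR adjusted p = 0.577). The first gap was called by limma-voom with sample quality weights (-0.99, adjusted p = 5.59e-05) and by edgeR on only the groups compared (-0.75, adjusted p = 0.0565). LM CD49a- NK cells had 262, 593 and 201 CPM and overlapped both other NK cell populations, with log2 differences of 0.36 for LM CD49a+ minus LM CD49a- (edgeR adjusted p = 0.740) and 0.28 for LM CD49a- minus MFL NK cells (edgeR adjusted p = 0.979). The interaction for Ccr2 was 1.09 without a call (edgeR adjusted p = 0.530), and without replicate 2 of the LM CD49a- NK cells it was 1.696 and was called (edgeR adjusted p = 0.0325), as it was by limma-voom (1.79, adjusted p = 0.0126).

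The remaining 4 receptors were low in lymphocytes. Ccr1, a receptor for CCL3, CCL5 and CCL6 used by myeloid cells, had at most 1.33 CPM in any of the 12 libraries and was at 0 counts in 6 of them, with no call in any comparison. Ccr7, the lymph node homing receptor for CCL19 and CCL21, was at 0 counts in all MFL ILC1 libraries. MFL NK libraries had 0, 1.03 and 0.367 CPM. LM CD49a- libraries had 0, 3.66 and 7.01 CPM and LM CD49a+ libraries 10.2, 0 and 1.79 CPM. Against the floor of 3 counts per library in ILC1, 0.253 CPM, the LM CD49a+ mean was at least 15.8-fold higher, but 1 of the 3 libraries was at 0 and there was no call (edgeR adjusted p = 0.236), although DESeq2 called it (adjusted p = 0.0647). In MFL ILC1 against MFL NK cells Ccr7 was not called (edgeR adjusted p = 0.717) except by limma-voom (adjusted p = 0.0331). Ccr9, the gut homing receptor for CCL25, and Xcr1, the receptor for XCL1 on cross-presenting dendritic cells, did not pass the filter on low counts and were not tested. Ccr9 reached 0.732 CPM, or 10 counts, and Xcr1 was at 1 count in 1 ILC1 library and at 0 in the other 11.

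**Figure D1:**
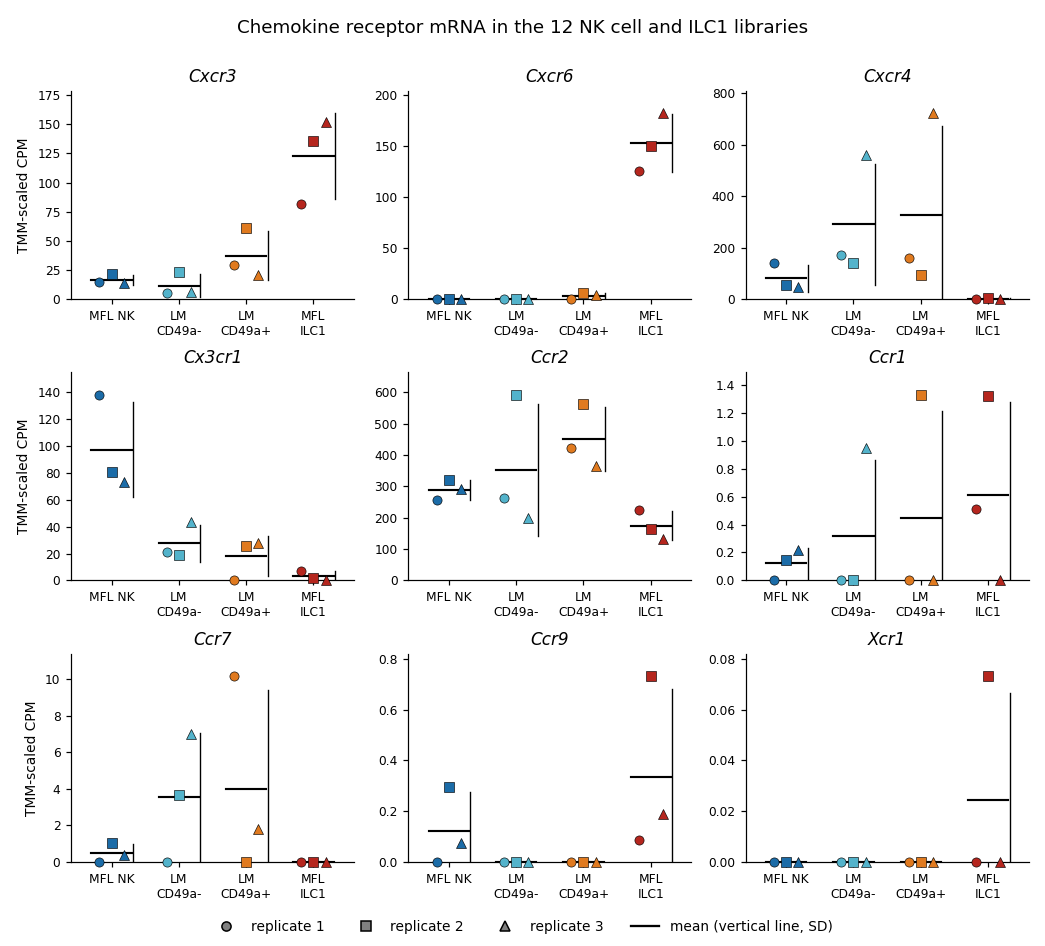
TMM-scaled CPM (vertical axes, each starting at 0 and scaled per gene) of the 9 receptors in the 4 lymphocyte populations. Symbols are single libraries by replicate number, horizontal lines means and vertical lines the SD (n = 3, cut at 0). Cxcr3 and Cxcr6 peak in MFL ILC1, Cxcr4 is near 0 there and highest in replicate 3 of both LM populations, and Cx3cr1 is highest in MFL NK cells.

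Compared per kilobase of exon model, so that genes can be set side by side, the leading receptors differed between populations. In MFL ILC1 the order of levels was Cxcr6 (78.8 ± 14.6 CPM per kb, SD, n = 3), Cxcr3 (71.0 ± 21.3) and Ccr2 (25.8 ± 6.89), and every other receptor was below 1 CPM per kb on average. In MFL NK cells it was Cxcr4 (44.1 ± 28.4 CPM per kb), Ccr2 (42.7 ± 4.73), Cx3cr1 (20.9 ± 7.64) and Cxcr3 (9.60 ± 2.46). In both LM populations Cxcr4 led, with 159 ± 129 CPM per kb in CD49a- and 179 ± 189.9 CPM per kb in CD49a+ NK cells, followed by Ccr2 with 52.0 ± 31.2 and 66.7 ± 15.0 CPM per kb. Libraries of the first and second receptor overlapped in each of the 4 populations, so their order is not larger than the spread. Ccr2 and the receptor ranked next below it did not overlap in any of the 4. These orders depend on the exon length used, which was 6765 bases for Ccr2, 1822 for Cxcr4 and 1937 for Cxcr6. By mean CPM, without division by length, Ccr2 was the highest receptor in all 4 populations.

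Calls were made at an adjusted p under 0.1 over all 13594 genes tested. For MFL ILC1 against MFL NK cells, 2 of the 7 receptors tested were higher in ILC1 and 2 were lower, beside 1.38% of all genes called higher and 1.68% called lower. DESeq2 called 4 receptors there, beside 667 genes, and limma-voom 6, with Ccr2 and Ccr7 added, beside 2645 genes. The median log2 difference of the 7 was -0.73, beside 0.0055 over all genes. For LM CD49a+ NK cells against MFL ILC1, 2 of 7 were higher and 1 was lower, beside 2.29% and 1.29% of all genes, with a median of 1.37 beside -0.07. In the interaction 1 of 7 was called, beside 0.625% of all genes called with a positive and 0.405% with a negative value, with a median of 1.09 beside 0.04. Of the others, Cx3cr1 and Ccr2 had an unadjusted p under 0.05.

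In the other comparisons 0 of 7 receptors were called by edgeR. For the CD49a+ against the CD49a- NK cells of LM, 0.0662% of all genes were higher and 0.0736% lower, and 2 receptors, Cxcr3 and Cxcr6, had an unadjusted p under 0.05. DESeq2 called these 2 receptors, beside 543 of 13594 genes, and limma-voom with sample quality weights called 0 receptors and 0 genes. Between LM CD49a- and MFL NK cells, 0.0662% of genes were higher and 0.00736% lower, and 1 receptor, Cxcr4, had an unadjusted p under 0.05. DESeq2 called 0 receptors there, beside 161 genes, and limma-voom called 1, Cxcr4, beside 104 genes. Between LM CD49a+ and MFL NK cells, 0.427% of genes were higher and 0.221% lower, and 4 receptors (Cx3cr1, Cxcr3, Cxcr4 and Cxcr6) had an unadjusted p under 0.05. There DESeq2 called 0 receptors, beside 365 genes, and limma-voom called 1, Cxcr4, beside 307 genes. The median log2 differences of the 7 receptors in these comparisons were 0.36, 0.28 and 1.77, in the order given, beside 0.01, -0.09 and -0.04 over all genes. These comparisons share libraries with each other and with those above. With 3 libraries against 3, an exact two-sided permutation test of 1 gene cannot give a p below 0.1.

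**Figure D2:**
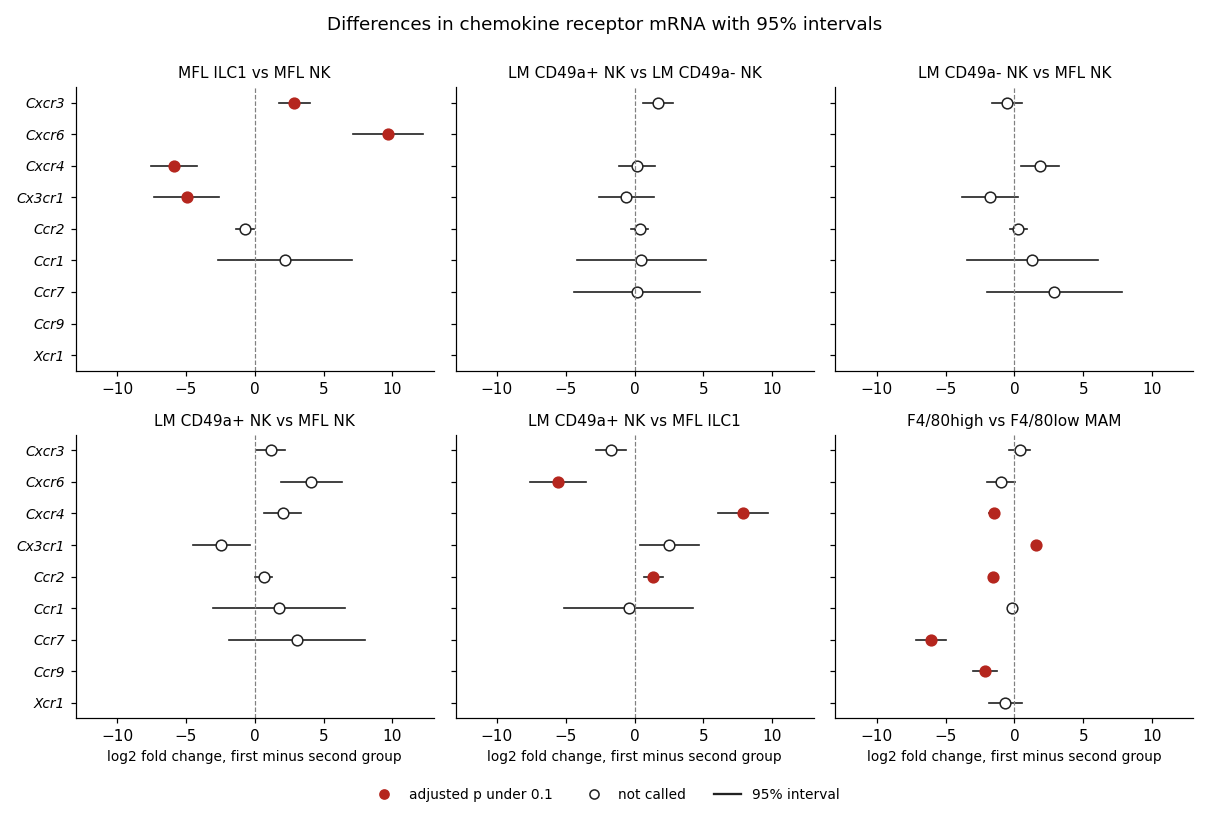
Log2 fold changes (first minus second group of each panel title, horizontal axes) of the receptors with unadjusted 95% intervals as horizontal lines. Filled points passed an adjusted p under 0.1 and open points did not. Receptors that were not tested, or that had 0 counts in every library of 1 group, have no point. Cxcr4 stands at -5.87 in MFL ILC1 against MFL NK cells and at 7.89 in LM CD49a+ NK cells against MFL ILC1.

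In MAMs, Ccr2, the receptor that marks classical monocytes, was higher in the F4/80low subset. F4/80low MAMs had 1358, 1361 and 1392 CPM, and F4/80high MAMs had 525, 439 and 426 CPM. The groups did not overlap, and the log2 difference of F4/80high minus F4/80low was -1.56 (standard error 0.11, edgeR adjusted p = 1.40e-05). Cx3cr1, carried by patrolling monocytes and many tissue macrophages, ran the other way. It had 1457, 1264 and 1755 CPM in F4/80high and 424, 578 and 519 CPM in F4/80low MAMs, again without overlap (log2 difference 1.56, standard error 0.16, edgeR adjusted p = 0.000109). The 7 listed monocyte genes moved with Ccr2, since all 7 were lower in F4/80high MAMs, beside 27.1% of all genes. Their sum was 156 to 269 CPM there against 1281 to 1637 CPM in F4/80low MAMs. Of 10 macrophage genes 8 were higher in F4/80high MAMs, beside 27.8% of all genes. The part of either list in the Ccr2 and Cx3cr1 differences was not tested.

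Ccr7, a receptor of migrating mature dendritic cells, gave the largest difference of the 9 receptors in MAMs. F4/80low MAMs had 323, 165 and 146 CPM, and F4/80high MAMs had 5.72, 0.992 and 3.11 CPM. The log2 difference was -6.05 (standard error 0.56, edgeR adjusted p = 6.87e-05). All 10 listed genes of mature dendritic cells were lower in F4/80high MAMs, beside 27.1% of all genes. They summed to 221 to 321 CPM in F4/80high and to 1141 to 2144 CPM in F4/80low MAMs, where Ccl22 had a mean of 383 CPM, Fscn1 368 CPM and Ccl17 115 CPM. None of the 10 was at 0 in all libraries of a subset, and their part in the Ccr7 difference was not tested.

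Cxcr4 was also higher in F4/80low MAMs, with 253, 192 and 239 CPM against 105, 68.2 and 73.1 CPM in F4/80high MAMs. No library overlapped (log2 difference -1.48, standard error 0.18, edgeR adjusted p = 0.000272). Ccr9 was called lower in F4/80high MAMs at levels of 0.450, 0.283 and 0.162 CPM against 1.116, 1.67 and 1.04 CPM (log2 difference -2.12, standard error 0.44, edgeR adjusted p = 0.00484). These are 5 to 10 counts per library against 24 to 49, so Ccr9 was scarce in both subsets.

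The other 4 receptors were not called in MAMs. Ccr1 was abundant in both subsets, with 255, 210.2 and 246 CPM in F4/80high and 249, 246 and 310.1 CPM in F4/80low MAMs. Its libraries overlapped, and the 95% interval of the log2 difference was -0.41 to 0.06 (edgeR adjusted p = 0.258). Cxcr3 had 1.25 to 4.14 CPM in the 6 libraries (log2 difference 0.37, edgeR adjusted p = 0.465). Cxcr6 had 0.283 to 1.28 CPM and Xcr1 0.605 to 4.13 CPM. Both became called as lower in F4/80high MAMs without replicate 3 of the F4/80low MAMs, the lowest F4/80low library for both (edgeR adjusted p = 0.0426 for Cxcr6 and 0.0710 for Xcr1), beside edgeR adjusted p-values of 0.147 and 0.4002 with all libraries. Of 9 tested markers of cross-presenting dendritic cells, the cells that use Xcr1, 2 were higher and 6 lower in F4/80high MAMs. The shares of all genes were 27.8% and 27.1%. These markers summed to 555 to 732 CPM against 1032 to 1456 CPM. Of 9 tested NK cell and ILC1 markers 7 were lower, beside 27.1% of all genes, with a median log2 difference of -3.03. Their sums overlapped, at 306 to 504 CPM against 429 to 512 CPM, so the sums do not stand for most of these 9 markers. The part of both marker lists in the Xcr1, Cxcr3 and Cxcr6 levels was not tested.

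Of the 9 receptors tested in MAMs, 1 was called higher and 4 lower in the F4/80high subset, beside 27.8% of all 13759 genes called higher and 27.1% called lower. The share called, 5 of 9, was near that of all genes, of which 7555 of 13759 were called, so it does not set the receptors apart. The median log2 difference of the 9 was -0.99, beside 0.014 over all genes. Per kilobase of exon model, Cx3cr1 led in F4/80high MAMs (320.3 ± 53.1 CPM per kb, SD, n = 3), ahead of Ccr1 (83.6 ± 8.40) and Ccr2 (68.5 ± 7.96), which overlapped each other, and Cxcr4 (45.0 ± 10.9). In F4/80low MAMs Ccr2 led (203 ± 2.80 CPM per kb), and Cxcr4 (125 ± 17.7), Cx3cr1 (109 ± 16.6), Ccr7 (106 ± 49.1) and Ccr1 (94.6 ± 12.7) followed with overlap between neighbours.

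**Figure D3:**
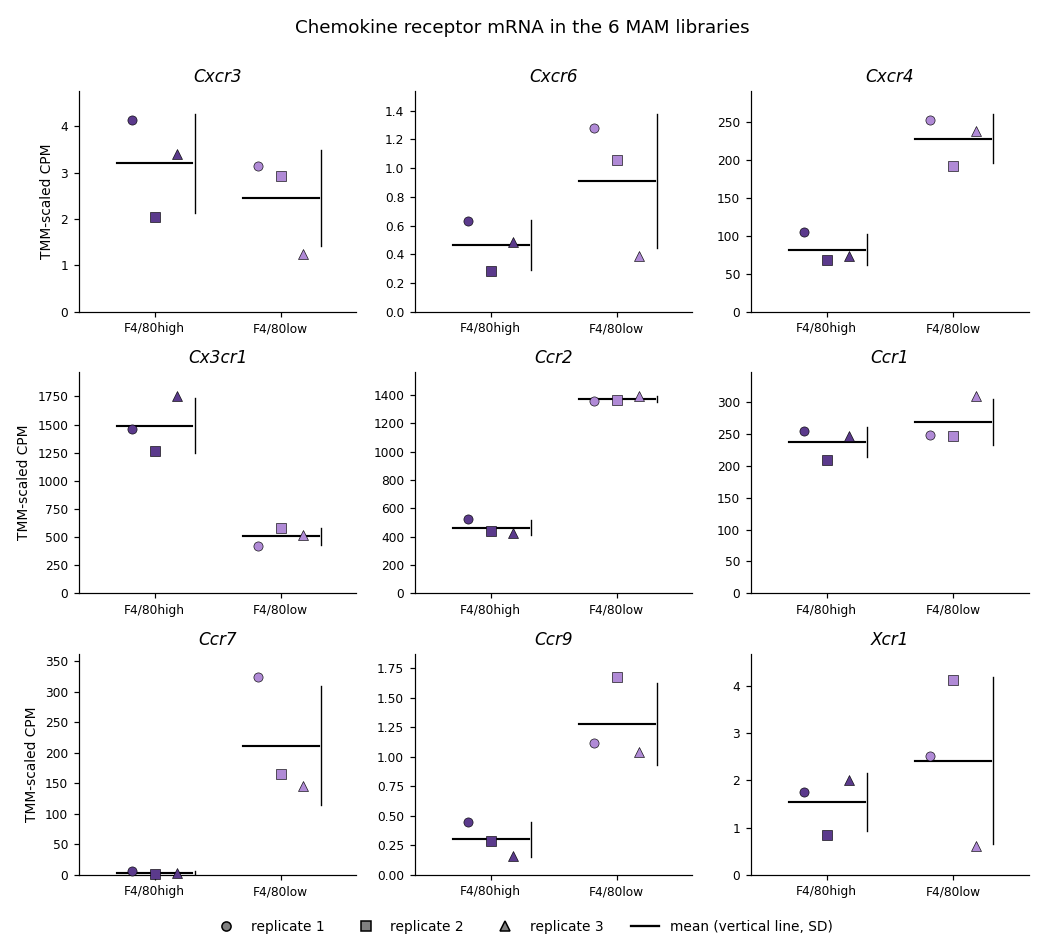
TMM-scaled CPM (vertical axes, each starting at 0 and scaled per gene) of the 9 receptors in F4/80high and F4/80low MAMs. Symbols are single libraries by replicate number, horizontal lines means and vertical lines the SD (n = 3). Ccr2, Ccr7, Cxcr4 and Ccr9 are higher in all F4/80low libraries and Cx3cr1 is higher in all F4/80high libraries.

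The chromosome 9 cluster was read together with its neighbours. The stretch from Ccr9 to Ccr2 holds 9 genes of the list read here, of which 5 are among the 9 receptors. In MFL ILC1 against MFL NK cells, 5 of these genes were tested and 1 was called, Cxcr6, beside 1.38% of all genes called higher. Its host gene Fyco1, named after its values were seen, had 116 CPM in ILC1 and 88.0 CPM in NK cells (log2 difference 0.40, edgeR adjusted p = 1). In MAMs 8 of the genes were tested. Ccr9 and Ccr2, 2 of the 8, were lower in F4/80high MAMs and none was higher, beside 27.1% of all genes called lower and 27.8% called higher.

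**Figure D4:**
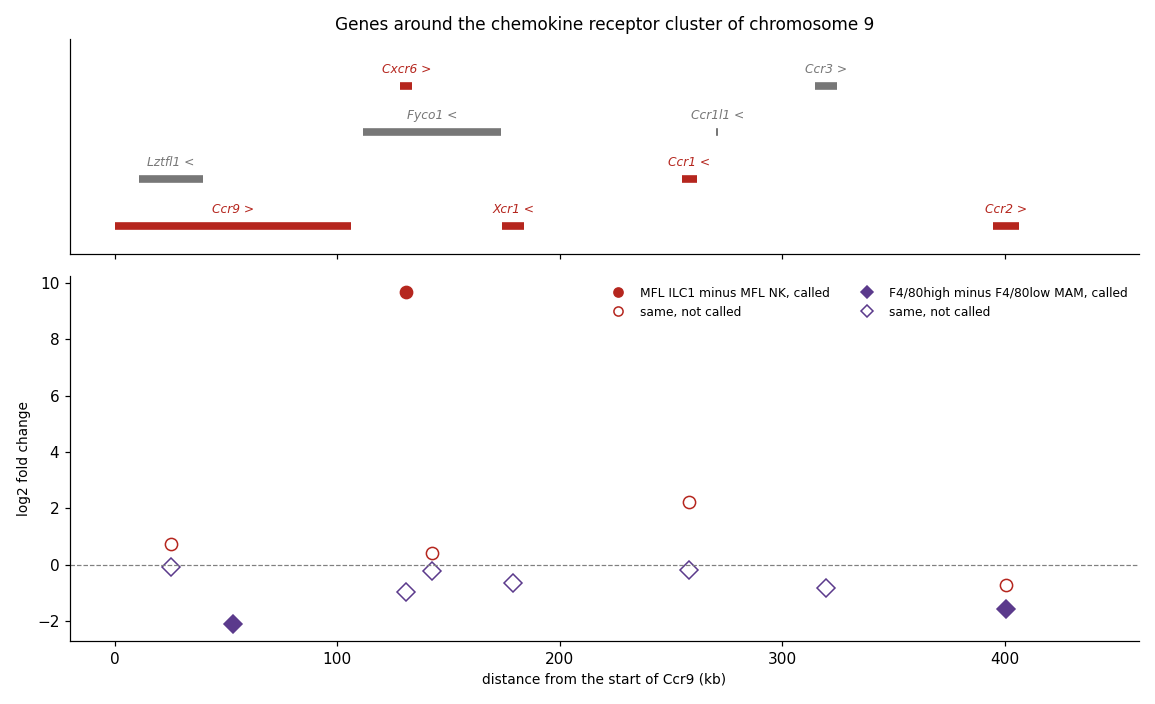
Listed genes from Ccr9 to Ccr2 on chromosome 9 by distance from the start of Ccr9 in kb (horizontal axis), with the 9-receptor set in red, other genes in grey and arrows for strand, and below them the log2 fold change (vertical axis) of MFL ILC1 minus MFL NK cells (circles) and of F4/80high minus F4/80low MAMs (diamonds). Filled symbols passed an adjusted p under 0.1 and genes that were not tested have no symbol. Cxcr6 at 9.67 is the only filled circle, and Ccr9 at -2.12 and Ccr2 at -1.56 are the filled diamonds.

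Other receptors for chemoattractants were read from a list of 17 genes. In MFL ILC1 against MFL NK cells 5 were tested, 3 were lower in ILC1 and none was higher, beside 1.68% and 1.38% of all genes, with a median log2 difference of -6.51 beside 0.0055 over all genes. The 3 were Cmklr1, the chemerin receptor (0.936 against 185 CPM), S1pr1 (0.222 against 40.0 CPM) and S1pr5 (2.74 against 249.9 CPM), both receptors for sphingosine 1-phosphate that guide exit from tissue. In LM CD49a+ NK cells the same 3 were higher than in MFL ILC1, at 38.7, 47.2 and 39.2 CPM, beside 2.29% of all genes. All 3 also had a called positive interaction, beside 0.625% of all genes. In MAMs 10 were tested, 2 were higher and 7 lower in the F4/80high subset, beside 27.8% and 27.1% of all genes. The 8 with the largest differences on the log2 scale were S1pr5 (-6.14), Ccr6 (-4.99), Cxcr2 (-3.97), Ackr3 (-3.24), Cxcr5 (-2.60), Ccr8 (-2.48), S1pr1 (1.67) and Ccrl2 (-1.38). The median of the 10 was -2.54, beside 0.014 over all genes.

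Of 19 listed ligands, 9 were tested in lymphocytes. In MFL ILC1 against MFL NK cells 1 was higher and none lower, beside 1.38% and 1.68% of all genes. In LM CD49a+ against MFL NK cells 1 was higher and 1 lower, beside 0.427% and 0.221% of all genes. The median log2 difference there was -1.21, beside -0.04 over all genes. No ligand was called in the other lymphocyte comparisons or the interaction. Xcl1, the ligand of Xcr1, was higher in ILC1 than NK cells of MFL, at 124 against 19.2 CPM (log2 difference 2.69, standard error 0.47, edgeR adjusted p = 0.00255). LM CD49a+ NK cells, at 109 CPM, also exceeded MFL NK cells (log2 difference 2.50, standard error 0.47, edgeR adjusted p = 0.0212). Ccl5, a ligand of Ccr1, was lower in those cells than in MFL NK cells (835 against 2215 CPM, log2 difference -1.41, edgeR adjusted p = 0.0480).

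In MAMs 16 ligands were tested, with 5 higher and 6 lower in the F4/80high subset, beside 27.8% and 27.1% of all genes, and a median log2 difference of 0.04. Of the higher ones, Ccl12 (236 against 19.96 CPM, log2 difference 3.57), Ccl7 (235 against 39.3 CPM, 2.59) and Ccl2 (325 against 148 CPM, 1.13) are ligands of Ccr2, whose own level was lower there, and Ccl2 is named after its value was seen. Ccl8 was also higher (log2 difference 5.85). Cx3cl1, the ligand of Cx3cr1, was lower (0.689 against 20.2 CPM, -4.86), as were Cxcl11 (-2.87), Ccl5 (-2.46), Ccl6 (-1.997) and Xcl1 (-1.99). Cxcl9 and Cxcl10, ligands of Cxcr3 that are named here after their values were seen, had 124 and 180.5 CPM in F4/80high and 176 and 187 CPM in F4/80low MAMs and were not called (edgeR adjusted p = 0.277 and 0.733).

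The 29 listed genes of receptor signalling were all tested in lymphocytes. They cover G protein subunits, phospholipases, kinases, arrestins, RGS proteins, Rac and Rap GTPases, Dock2, Elmo1 and Rassf5. In MFL ILC1 against MFL NK cells 1 was higher and 4 were lower, beside 1.38% and 1.68% of all genes, and the median log2 difference was -0.15. In LM CD49a+ NK cells against MFL ILC1 3 were higher, beside 2.29% of all genes. In MAMs 5 of the 29 were higher and 16 lower in the F4/80high subset, beside 27.8% and 27.1% of all genes, with a median of -0.30. Of 11 listed transcriptional and migratory regulators, 1 was higher and 7 were lower in ILC1 against NK cells of MFL, beside 1.38% and 1.68% of all genes, with a median of -2.52. In LM CD49a+ NK cells against MFL ILC1 8 were higher and 1 was lower, beside 2.29% and 1.29% of all genes, with a median of 1.94.

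Over the 12 lymphocyte libraries, the genes whose log2 CPM followed a receptor most closely were found for the 7 receptors tested. Cxcr6 was most like P2rx7 (Pearson r = 0.986), Arnt2 (0.981) and Abi3 (0.969). Cxcr4 was most like Ccdc88a (0.972), Nab1 (0.970) and Atp11b (0.966), and Cxcr3 was most like Zfp652 (0.944), Gm43042 (0.939) and Lcp2 (0.935). Cx3cr1 was most like Mtpn (0.901), Klrg1 (0.901) and Lair1 (0.897), and Ccr2 was most like Ddx10 (0.916), Top2a (0.8998) and Ttll12 (0.886). For the scarce receptors the closest genes were Tpd52l2 (0.891), Chic2 (0.870) and Adipor1 (0.866) for Ccr7 and Thbs1 (0.799), Gm4316 (0.775) and Lrp1 (0.770) for Ccr1. These values describe 12 libraries of 4 populations, which share differences between populations, and were picked as the highest of all genes with a mean of at least 5 CPM.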

How the data were processed

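RNA of sorted lymphocytes (12 libraries) and MAMs (6 libraries) was sequenced. For the lymphocytes the authors trimmed reads, quantified them with Salmon (1.5.0) on GRCm39 and summed them to genes, and for the MAMs the labels name Salmon (1.10.0). Both deposited tables hold estimated counts, not normalized and already in whole numbers, and no MAM gene has a total below 37, so scarce genes had been removed there. Gene names came from GENCODE vM39 of GRCm39, which held 53700 of 54309 and 13726 of 13759 IDs.

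Counts were filtered with filterByExpr, scaled by TMM and tested with edgeR (4.0.16) quasi-likelihood F tests in R (4.3.3), in 1 fit of the 12 lymphocyte libraries and 1 fit of the 6 MAM libraries. Adjustment for multiple testing was the Benjamini-Hochberg method over all genes tested, and genes were called at an adjusted p under 0.1, the threshold of the study. Standard errors were derived from the fold change and the F statistic. The 95% intervals were built from them with a normal quantile, so they are narrower than the F test implies with so few libraries. A mean was set against a population at 0 with a floor of 3 counts per library, which covers counting error only. Levels per kilobase used the union of exons. The scripts were tested on simulated counts. DESeq2 (1.42.0), limma-voom (3.58.1) with sample quality weights, other scalings and filters, a replicate block, a fit of only the groups compared and leaving out single libraries were the alternatives. Figures were drawn with matplotlib.

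The receptors, gene lists and tests were chosen with earlier results of these data known. Beside the 9 receptors, called genes of the lists of other receptors, ligands and chromosome 9 neighbours (at most 8 per list, by size of change) and the 3 genes most like each receptor were named. Of the 12 listed chromosome 9 genes, the 3 that lie outside the stretch from Ccr9 to Ccr2 were left out of the account of the cluster. A gene taken out of the lists is not reported here.

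After removing group means, same-numbered lymphocyte libraries of different groups correlated at -0.05 to 0.10 (18 pairs). Same-numbered MAM libraries correlated at -0.01 to 0.17 (3 pairs). Replicate numbers were not taken to pair libraries, although such correlations over all genes cannot exclude a pairing for single genes. No measured column was without a sample.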

Additional observations from a re-analysis of the deposited data

Results flagged for a closer look

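For Cxcr4 the CD49a+ minus CD49a- difference was called as differing between the sites by the test of the interaction. The interaction was 6.04 on the log2 scale (standard error 1.07, 95% interval 3.94 to 8.13, edgeR adjusted p = 0.0125), from 0.17 in LM and -5.87 in MFL. Leaving out 1 library at a time gave edgeR adjusted p-values of 0.00511 to 0.0448, and limma-voom with sample quality weights did not call it (4.54, adjusted p = 0.250). For Cx3cr1 the same contrast was 4.33 (unadjusted p = 0.0102, edgeR adjusted p = 0.384), and it was called without a low-count filter (edgeR adjusted p = 5.63e-05). For Ccr2 it was 1.09 (unadjusted p = 0.0320, edgeR adjusted p = 0.530), and limma-voom called it (1.79, adjusted p = 0.0126).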

How the results depend on the processing

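Of 698 alternative values of 51 results, 640 kept their direction and their side of the threshold, 6 lost the call, 29 gained one and 23 reversed. Receptors called between LM CD49a+ and CD49a- NK cells numbered 2 by DESeq2 and 2 without a low-count filter, beside 543 and 200 genes. With a library left out they numbered 0 to 1, beside 5 to 267 genes. For LM CD49a- against MFL NK cells, limma-voom called 1 beside 104 genes and no filter 1 beside 158. For LM CD49a+ against MFL NK cells, limma-voom called 1 beside 307 genes and no filter 3 beside 371. Leaving out a library gave 0 to 1 there, beside 26 to 162 genes. For LM CD49a+ NK cells against MFL ILC1, DESeq2 called 5 beside 1010 genes and no filter 5 beside 774. In the interaction no filter called 2 beside 264 genes, and leaving out a library gave 1 to 2 beside 75 to 256. All genes tested were 13594 for DESeq2 and limma-voom and 21988 without the filter. The cause of these changes was not tested.

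Reversed values on the log2 scale were those of scarce or overlapping receptors. For LM CD49a+ against CD49a- NK cells, limma-voom gave -0.22 for Ccr1, -1.39 for Ccr7 and -0.77 for Cxcr4, and with a library left out Ccr1 ran from -4.93 to 5.40, Ccr7 from -2.01 to 1.13 and Cxcr4 from -1.20 to 1.07. For LM CD49a- against MFL NK cells, limma-voom gave -0.20 for Ccr2, which ran from -0.33 to 0.55 with a library left out, and Ccr1 ran from -3.63 to 1.95. For LM CD49a+ against MFL NK cells, limma-voom gave -0.11 for Ccr7, and Ccr1 ran from -3.63 to 2.42. Ccr1 ran from -5.84 to 0.13 against MFL ILC1 and from -7.14 to 3.20 in the interaction. Without both LM replicate 3 libraries, chosen after the data were seen, Cxcr4 between the LM populations was -0.29, and Ccr1 was -3.65 for LM CD49a- against MFL NK cells, 0.13 for LM CD49a+ against MFL ILC1 and 3.78 in the interaction.

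Same-numbered libraries showed no strong shared deviation over all genes, and the replicate number was not taken as a pairing. This cannot exclude a shared sort for single genes, and Cxcr4 was highest in replicate 3 of both LM populations. With a replicate block 4 receptors were called for MFL ILC1 against MFL NK cells, beside 445 genes. In the other NK cell comparisons it called 0. It called 1 in the interaction, beside 127 genes, and 5 in MAMs, beside 7512 genes. For LM CD49a+ NK cells against MFL ILC1 it called 4, beside 484 genes. The added call was Cxcr3 (log2 difference -1.88, edgeR adjusted p = 0.0380). Ccr1, Ccr7, Ccr9 and Xcr1 rest on few counts in lymphocytes, and the part of depth in this was not tested.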
